A study of Mus musculus with 6 samples.

Results

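The Notch pathway genes Hes7, Lfng, Nrarp, Hes1, Hey1, Dll1, Dll3, Notch1, Notch2 and Jag1 were measured by RNA-seq in tailbuds of E10.5 mouse embryos. They were chosen by name as ligands, receptors and cyclic targets of the pathway, and make up 10 of the 54134 genes in the count table. All 10 were among the 12733 genes that passed the filter on low counts, which kept genes with more than 10 counts and a CPM (the count of a gene scaled by the total count of its library) above 2 in at least 2 libraries. The 4 wildtype and 2 Cdx2P:Nr6a1 embryos were C57BL/6, and each gave 1 library from the tissue caudal to its last somite. Cdx2P:Nr6a1 embryos came from pronuclear injection of a transgene that places Nr6a1, an orphan nuclear receptor, under Cdx2 regulatory elements. The wildtype embryos were those negative for the transgene. The 2 transgenic embryos were separate injected embryos rather than members of an established line. The labels do not give the somite number of any embryo, but the methods state that somites were counted and compared embryos matched to ±1 somite. The labels name no agent for either group, and the question asked here was how far the genotypes differed in these genes against the spread within each genotype.

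In Notch signalling, a Delta or Jagged ligand on the surface of a neighbouring cell leads to cleavage of the Notch receptor, and the freed intracellular domain joins Rbpj in the nucleus to switch on targets such as the Hes and Hey repressors. In the presomitic mesoderm, the tissue of the tailbud that segments into somites, some of these targets are switched on and off in waves, and each wave precedes the formation of a somite pair. Hes7 protein represses its own gene and Lfng in this clock, and genes of the FGF and Wnt pathways cycle alongside it.

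The libraries held between 44073460 and 67183802 counts over genes, and counting error on the members was small beside the spread between libraries. Nr6a1 was 5.37 ± 1.23 CPM in wildtype (SD, n = 4) and 28.6 ± 7.33 CPM in Cdx2P:Nr6a1 (SD, n = 2), a log2 fold change of 2.41 (SE 0.20, adjusted p = 0.0013), and transgene and endogenous transcripts cannot be told apart in these counts. Across all genes tested, 203 (1.59%) were called at an adjusted p under 0.05 by edgeR's quasi-likelihood test. The 7 tailbud markers summed to between 1926 and 2371 CPM, so the labelled tissue was present, with Cdx2 and Cyp26a1 called higher and Sp5 called lower in Cdx2P:Nr6a1. The 6 erythroid markers summed to between 8294 and 20107 CPM, highest in wildtype replicate 1, with 0 called. All 6 surface ectoderm markers had positive log2 fold changes, with Krt18 called higher. The 4 of 8 somite markers tested were all negative, with Aldh1a2 called lower. No endothelium, hindgut, notochord or macrophage marker was called. The part of these cell types in the values of the members was not tested. Transcripts of 4 Y-linked genes were at 209 and 180 CPM in wildtype replicate 3 and Cdx2P:Nr6a1 replicate 2 and under 1 CPM in the other 4 libraries. Because whole tailbuds were sequenced, fewer cells of a type and less RNA per cell cannot be told apart.

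None of the 10 members was called (0 of 10, with 1.59% of all genes tested called), while 3 reached an unadjusted p under 0.05. Those were Hes1 and Jag1, with higher values in Cdx2P:Nr6a1, as 5.54% of all genes tested, and Dll3, with lower values, as 4.99%. They were also the 3 members whose genotypes did not overlap in CPM, a separation seen in 18.6% of all genes tested, with 10.1% higher and 8.48% lower in both transgenic libraries. By other tests, Hes1 and Jag1 were called with the likelihood ratio test of edgeR (3.15% of all genes called), with DESeq2 (3.75%) and without wildtype replicate 3 (1.17%), Jag1 alone with limma voom (1.86%), and Hes1, Jag1, Lfng and Nrarp without a filter on low counts (2.69%). The clock genes Lfng, Hes7 and Nrarp instead varied widely within both genotypes. The median log2 fold change of the 10 members was 0.04, and that of all genes tested was -0.00071.

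**Figure D1:**
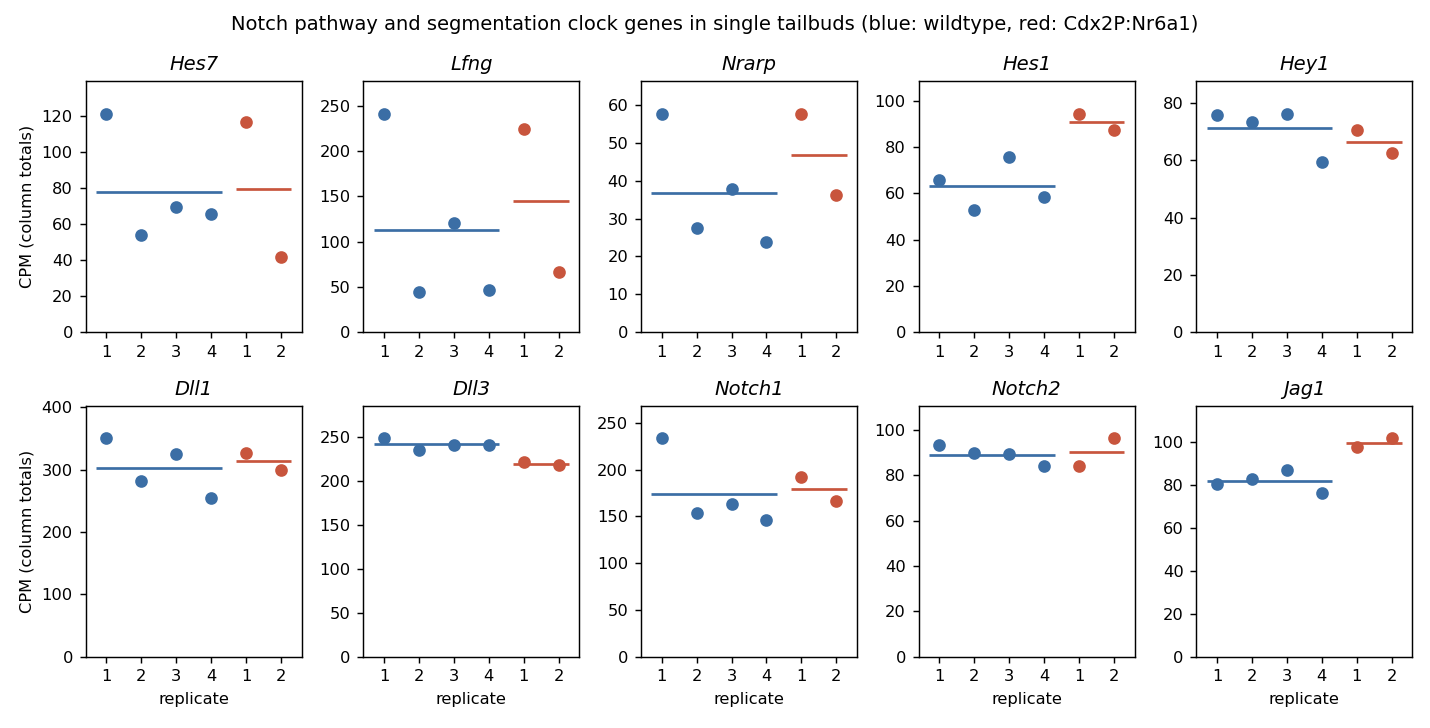
CPM from column totals (vertical axes, each starting at 0) for the 10 genes in each of the 6 tailbud libraries (horizontal axes: wildtype replicates 1 to 4 in blue, Cdx2P:Nr6a1 replicates 1 and 2 in red); horizontal lines are group means. Lfng ran from 44.7 to 241 CPM within wildtype, whereas the genotypes did not overlap for Hes1, Dll3 and Jag1.

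Lfng codes for a fringe glycosyltransferase that adds sugars to the Notch receptor and so changes its response to ligands, and it lies at chr5:140607320-140615545 on the plus strand of GRCm38. Hes7, a repressor of the Hes family and a core gene of the clock, lies at chr11:69120404-69124055 on the plus strand. The promoters of these 2 genes are shown as the only ones, of those searched, that held a motif described here. Both genes were among the most variable members and had the same 3 libraries highest, although the other libraries differed in order. Cdx2P:Nr6a1 replicate 2 was lowest for Hes7 but not for Lfng. Nrarp varied more than Hes7 within wildtype and had the same 3 libraries highest, but its promoter held neither motif. RefSeq promoter windows from 250 bases before to 50 bases after the start of each gene (GRCm38.p6) were matched for 8 of the 10 members, with Hes1 and Hey1 having no entry in the table used. They were searched on both strands for GTGGGAA, the core letters bound by Rbpj, and for CACGAG, one form of the N box bound by Hes repressors. Of the 8 promoters, those of Lfng and Hes7 alone held either motif, and both held the pair. Over all 32851 promoters of the same length, 6.38% held GTGGGAA, 6.47% held CACGAG and 0.408% held both. In the stretches printed here the motif is in capitals with 10 bases on each side, written along the plus strand, and no motif overlaps another.
Lfng, GTGGGAA on the plus strand, chr5:140607222-140607248: cgtatcccacGTGGGAAggagagatct
Lfng, CACGAG on the minus strand, chr5:140607150-140607175: gcgggacaggCTCGTGcacaaagggg
Hes7, GTGGGAA on the minus strand, chr11:69120263-69120289: ctcccctcacTTCCCACatttggggct

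A match of letters is a description of these windows and was not tested for binding.

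Lfng was at 241, 44.7, 120.3 and 47.0 CPM in wildtype replicates 1 to 4, and at 224 and 66.3 CPM in Cdx2P:Nr6a1 replicates 1 and 2. Each genotype thus held a library with high and a library with low Lfng, and the transgenic values fell inside the wildtype range. The highest wildtype library exceeded the lowest 5.40-fold, and the transgenic libraries differed 3.37-fold. The coefficient of variation (CV, SD over mean) within wildtype was 81.4%, exceeded by 24 of the 12733 genes tested, against a median of 5.85% for all genes and a counting error of 1.31% for Lfng. Without wildtype replicate 1 the CV was 60.9% and the wildtype range 2.69-fold. The log2 fold change between genotypes was 0.34 (SE 0.67, 95% interval -1.18 to 1.86, adjusted p = 0.945). Differences inside that interval were not detectable with these libraries.

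Hes7 was at 121, 54.0, 69.5 and 65.8 CPM in the wildtype libraries, and at 117 and 41.9 CPM in the Cdx2P:Nr6a1 libraries. Wildtype replicate 1 and Cdx2P:Nr6a1 replicate 1 were high, and Cdx2P:Nr6a1 replicate 2 was the lowest of all 6. The wildtype CV was 38.4% (2.24-fold between extremes), exceeded by 109 genes. Without wildtype replicate 1 it was 12.9% (1.29-fold), so that library set most of the wildtype spread. The transgenic libraries differed 2.78-fold. Between genotypes the log2 fold change was 0.01 (SE 0.39, 95% interval -0.88 to 0.91, adjusted p = 0.995).

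The exons of Hes7 share 234 of their 1809 bases with 9130213A22Rik, an antisense gene at chr11:69120054-69122589. Its levels were 19.0, 5.86, 14.5 and 5.83 CPM in wildtype and 17.5 and 9.35 CPM in Cdx2P:Nr6a1, with the same 3 libraries highest as for Hes7. The libraries were made with a stranded kit, but the counting setting is not given in the sources used here. Among 481 genes fully covered by antisense exons, 0 exceeded 10 counts in total, against 37.9% of 45230 genes that no antisense exon touches. Reads over bases shared by a pair of genes were therefore taken as left uncounted, and without strand, reads of Hes7 introns and of 9130213A22Rik cannot be told apart.

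Nrarp codes for an ankyrin repeat protein that is a target of Notch and lowers Notch signalling in return. It was at 57.6, 27.6, 37.7 and 23.7 CPM in wildtype, and at 57.7 and 36.1 CPM in Cdx2P:Nr6a1. The transgenic values lay inside the wildtype range and just above its top, and wildtype replicate 1 and Cdx2P:Nr6a1 replicate 1 were within 1 CPM of each other. The wildtype CV was 41.3% (2.42-fold), exceeded by 85 genes, and was 24.2% (1.59-fold) without wildtype replicate 1. Between genotypes Nrarp had a log2 fold change of 0.34 (SE 0.32, 95% interval -0.37 to 1.06, adjusted p = 0.846). Of the 2582 exon bases of Nrarp, 2051 (79.4%) lie under the antisense gene Gm38287, which had 0 counts in all 6 libraries, so its counts were taken to come from the other 531 bases.

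**Figure D2:**
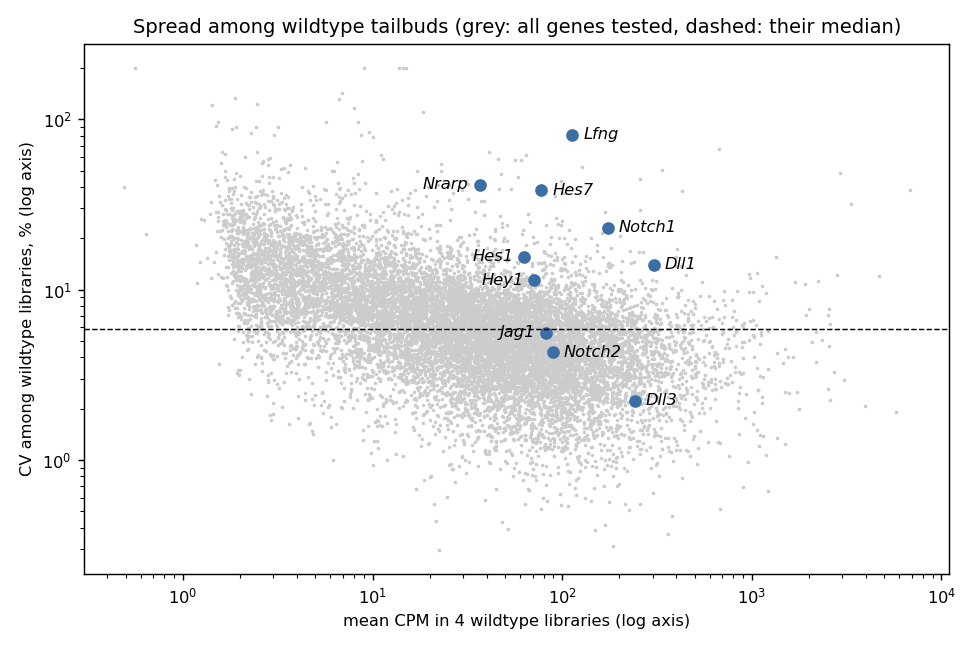
Coefficient of variation in CPM among the 4 wildtype libraries (vertical log axis, percent) against mean wildtype CPM (horizontal log axis) for the 12733 genes tested (grey) and the 10 members (blue); the dashed line is the median of all genes, 5.85%. Lfng (81.4%), Nrarp (41.3%) and Hes7 (38.4%) stand above most genes of similar level, and Dll3 (2.22%) stands below the median.

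Libraries high in Lfng were also high in several other cyclic genes. In decreasing order of Lfng the libraries were wildtype replicate 1, Cdx2P:Nr6a1 replicate 1, wildtype replicate 3, Cdx2P:Nr6a1 replicate 2, wildtype replicate 4 and wildtype replicate 2. The same 3 libraries were the highest for Hes7, Nrarp and Dll1, which makes 3 of the 9 other members, against 2.74% of the other 12732 genes tested. Among 7 FGF-linked cyclic genes the same 3 libraries were the highest for 5, namely Dusp4, Dusp6, Spry4, Snai1 and Efna1. For Dusp1, another phosphatase of MAP kinases, they were instead the 3 lowest, within a narrow range of 10.6 to 12.0 CPM, and Spry2 held neither pattern. Dusp4, a phosphatase that dampens MAP kinase signalling, was at 638, 296, 467 and 303 CPM in wildtype and 505 and 312 CPM in Cdx2P:Nr6a1, in exactly the order of Lfng. Efna1, an ephrin ligand, also had that order, from 63.6 to 133 CPM. Of the other 12732 genes tested, 10 had that order and 11 its reverse.

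Of 8 Wnt-linked cyclic genes, Dkk1 and Axin2, both inhibitors of Wnt signalling, ran the opposite way. The 3 libraries highest in Lfng were the 3 lowest for both, as for 2.87% of all other genes tested. Dkk1 was at 30.6, 97.9, 30.3 and 67.4 CPM in wildtype and 31.7 and 72.9 CPM in Cdx2P:Nr6a1. Axin2 was at 135, 193, 131 and 153 CPM in wildtype and 115 and 156 CPM in Cdx2P:Nr6a1. Both orders cut across genotype, with a transgenic library in each trio. The other 6 Wnt-linked genes held neither pattern. The order of 6 libraries is a description with no test. The 5 yolk sac endoderm genes added after the values were seen summed to 12.7, 109, 3.74 and 44.0 CPM in wildtype and 10.1 and 39.4 CPM in Cdx2P:Nr6a1. For that sum the 3 libraries highest in Lfng were again the 3 lowest, though wildtype replicate 3 rather than replicate 1 was the lowest. The part of these genes in the result was not tested.

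**Figure D3:**
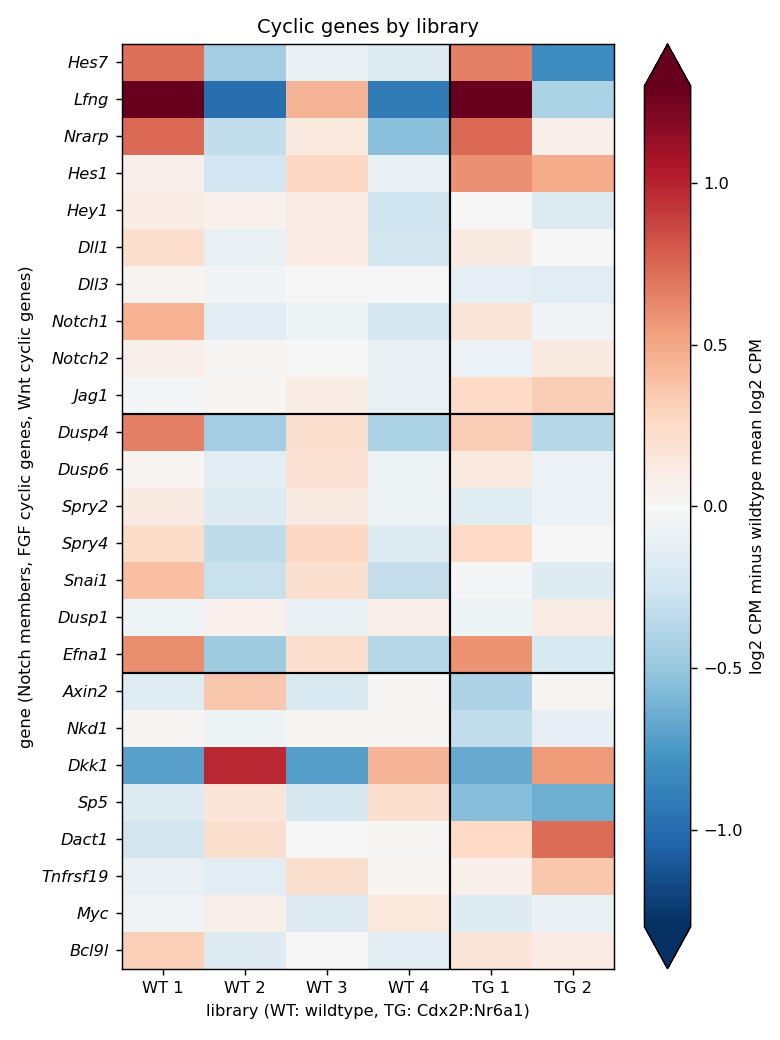
Log2 CPM of the 10 members, 7 FGF-linked and 8 Wnt-linked cyclic genes (rows) in the 6 libraries (columns), minus the mean log2 CPM of the 4 wildtype libraries; red is higher, blue lower, and Lfng passes the ends of the scale. Lfng, Hes7, Nrarp, Dusp4 and Efna1 are red in wildtype replicate 1 and Cdx2P:Nr6a1 replicate 1, where Dkk1 is blue.

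Hes1, a Hes repressor that answers Notch in many tissues, was at 65.7, 52.7, 75.6 and 58.5 CPM in wildtype and at 94.3 and 87.5 CPM in Cdx2P:Nr6a1. Both transgenic libraries lay above all 4 wildtype libraries, and the gap was larger than the wildtype SD of 9.88 CPM. Hes1 had a log2 fold change of 0.52 (SE 0.12, 95% interval 0.25 to 0.79), with an unadjusted p of 0.0019 and an adjusted p of 0.0820 by the quasi-likelihood test. It was called in 5 of the 15 other settings, with adjusted p between 1.0e-14 (no filter) and 0.416 over all of them. An exact permutation test of 2 libraries against 4, two-sided, gave 0.0667, the smallest value this design allows.

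Hey1, a repressor of the related Hey family, was at 76.0, 73.5, 76.3 and 59.3 CPM in wildtype and at 70.5 and 62.5 CPM in Cdx2P:Nr6a1. Wildtype replicate 4 was the lowest library, and the transgenic values fell within the wildtype range. Hey1 had a log2 fold change of -0.11 (SE 0.10, 95% interval -0.34 to 0.12, adjusted p = 0.848).

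Jag1, a ligand of the Jagged family, had the lowest unadjusted p of the members. It was at 80.7, 83.1, 87.2 and 76.3 CPM in wildtype and at 97.9 and 101.9 CPM in Cdx2P:Nr6a1. All transgenic values exceeded all wildtype values, with a wildtype CV of 5.59%. Jag1 had a log2 fold change of 0.28 (SE 0.06, 95% interval 0.15 to 0.42), the unadjusted p was 0.0010 and the adjusted p was 0.0576, while the exact permutation p was again 0.0667. Jag1 was called in 6 of the 15 other settings, with adjusted p from 2.2e-04 to 0.297.

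Dll3, a divergent Delta ligand that acts on Notch within the same cell, was at 248, 235, 241.1 and 241.3 CPM in wildtype and at 221 and 218 CPM in Cdx2P:Nr6a1. It had the narrowest wildtype spread of the members, with a CV of 2.22%, and both transgenic libraries lay below all wildtype libraries. Dll3 had a log2 fold change of -0.14 (SE 0.04, 95% interval -0.24 to -0.05), the unadjusted p was 0.0088 and the adjusted p was 0.190. It was called in 0 of the 15 other settings, and its exact permutation p was 0.0667.

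Dll1, the Delta ligand that activates Notch in the presomitic mesoderm, was at 350.3, 282, 325 and 255 CPM in wildtype and at 327 and 300.4 CPM in Cdx2P:Nr6a1. The transgenic values sat inside the wildtype range. Its log2 fold change was 0.04 (SE 0.11, 95% interval -0.21 to 0.30, adjusted p = 0.962).

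The receptors showed no call. Notch1 was at 233, 154, 163 and 146 CPM in wildtype and at 192 and 166 CPM in Cdx2P:Nr6a1, with wildtype replicate 1 well above the rest. Its wildtype CV was 23.1%, and 5.52% without that library. Between genotypes Notch1 had a log2 fold change of 0.03 (SE 0.17, 95% interval -0.35 to 0.42, adjusted p = 0.978). Notch2 was at 93.3, 89.7, 89.3 and 84.1 CPM in wildtype and at 84.3 and 96.3 CPM in Cdx2P:Nr6a1, a wildtype CV of 4.28%. Its transgenic libraries lay near the bottom and above the top of the wildtype range, and the log2 fold change was 0.01 (SE 0.07, 95% interval -0.14 to 0.17, adjusted p = 0.976).

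Levels can be compared between genes only per length, so CPM was divided by the kilobases of exon that no other gene shares. In wildtype, Dll1 (90.4 ± 12.7 CPM per kb, SD, n = 4) and Dll3 (84.7 ± 1.88 CPM per kb) led, followed by Nrarp (69.0 ± 28.5), Hes7 (49.3 ± 18.9) and Lfng (45.2 ± 36.8). Hes1 was next at 31.0 ± 4.85 CPM per kb, then Hey1 at 21.8 ± 2.47, Jag1 at 14.04 ± 0.785, Notch1 at 13.6 ± 3.12 and Notch2 at 8.70 ± 0.373. Ranges of neighbours in this order overlapped among wildtype libraries except between Hes1 and Hey1, between Hey1 and Jag1, and between Notch1 and Notch2. The place of Nrarp rests on its counts coming from unshared bases only. Over all its exon bases Nrarp was at 14.2 ± 5.86 CPM per kb.

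Around the members, 44 of 47 other Notch pathway genes were tested, and Dtx1, Hes2 and Hes5 were below the filter. Of the 44, 2 rose (0.785% of all genes tested rose), 1 fell (0.809% fell) and 41 did not pass the test, with a median log2 fold change of -0.02. Dtx4, a Deltex ubiquitin ligase linked to Notch turnover, rose from 18.1 ± 1.70 CPM in wildtype to 33.7 ± 2.87 CPM in Cdx2P:Nr6a1, with a log2 fold change of 0.89 (SE 0.10, adjusted p = 0.0039). Dlk1, a non-canonical ligand, was 92.3 ± 6.26 CPM in wildtype and fell to 57.8 ± 1.98 CPM, and its log2 fold change was -0.68 (SE 0.07, adjusted p = 0.0038). Both were called in all 15 other settings.

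Hes3, a Hes repressor known in the neural tube, was at 0.793, 2.27, 1.88 and 2.09 CPM in wildtype and rose to 8.46 and 22.4 CPM in Cdx2P:Nr6a1. The transgenic libraries differed widely from each other but lay above all wildtype values. Hes3 had a log2 fold change of 3.13 (SE 0.40, adjusted p = 0.0074), and 2.25 (adjusted p = 0.0616) without Cdx2P:Nr6a1 replicate 2. Among the 3 of 8 neural markers tested, Sox1 and Sox3 were called higher. Sox2 was not called (log2 fold change 0.17, adjusted p = 0.653), and its genotypes overlapped. The summed neural level was 30.6 to 39.0 CPM in wildtype and 44.4 and 57.2 CPM in Cdx2P:Nr6a1. Pax6, Irx3, Olig2, Neurog2 and Nkx6-1 were below the filter. The part of the neural markers in the Hes3 result was not tested. Hes5 was at 0.912 to 1.69 CPM in wildtype and 1.62 to 1.63 CPM in Cdx2P:Nr6a1, overlapping between genotypes.

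The other named pathway genes gave values without a call. Of the 9 genes of the nuclear complex, 8 had negative log2 fold changes, with a median of -0.14 and none called. Among all 12733 genes tested, 6407 were negative. In the list of other Hes and Hey genes and the Tle corepressors, 5 of the 6 tested were positive, with a median of 0.16. Maml3, a coactivator, had a log2 fold change of -0.19 (adjusted p = 0.202). Rbpj, the factor that carries Notch to DNA, had -0.07 (adjusted p = 0.797). The corepressors Tle1 and Tle3 had 0.18 (adjusted p = 0.226) and 0.14 (adjusted p = 0.395), while Hes6 had 0.03, Dtx3 0.09, Adam10, a sheddase of Notch, -0.04, Notch3 -0.02 and Dll4 -0.04, with adjusted p between 0.766 and 0.963.

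Of the 15 FGF-linked and Wnt-linked cyclic genes, 1 fell (0.809% of all genes tested fell), 0 rose (0.785% rose) and 14 did not pass the test. Sp5, a target of Wnt signalling that is also a tailbud marker, was 99.96 ± 15.1 CPM in wildtype and fell to 65.5 ± 2.58 CPM, and its log2 fold change was -0.62 (SE 0.12, adjusted p = 0.0428). That call was lost without wildtype replicate 2 (adjusted p = 0.0654), wildtype replicate 4 (0.0626), Cdx2P:Nr6a1 replicate 1 (0.208) or Cdx2P:Nr6a1 replicate 2 (0.249). Dact1, a regulator of Wnt signalling, had a log2 fold change of 0.50 (SE 0.14, adjusted p = 0.143), and Nkd1, a Wnt inhibitor, had -0.21 (SE 0.07, adjusted p = 0.198). Axin2 had -0.18 (adjusted p = 0.838), Dusp4 -0.07 (0.973), Snai1 -0.13 (0.913) and Dusp6 0.02 (0.978).

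Most segment border genes were close to 0. Of 8 such genes, Mesp1, Mesp2, Ripply1, Ripply2, Uncx and Tbx18 were below the filter, with Mesp2 at 0 to 0.0894 CPM and Ripply2 at 0 to 0.136 CPM. Of the 2 tested, Tbx6, a regulator of presomitic mesoderm, was at 249 ± 16.7 CPM in wildtype and 209 ± 3.94 CPM in Cdx2P:Nr6a1, below all wildtype libraries, with a log2 fold change of -0.26 (SE 0.06, adjusted p = 0.107). Epha4, an ephrin receptor, had -0.18 (SE 0.08, adjusted p = 0.498). Beside these, among the 7 presomitic markers Cited1 was called lower, and the list summed to 1291 to 1364 CPM in wildtype and 1198 and 1222 CPM in Cdx2P:Nr6a1.

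**Figure D4:**
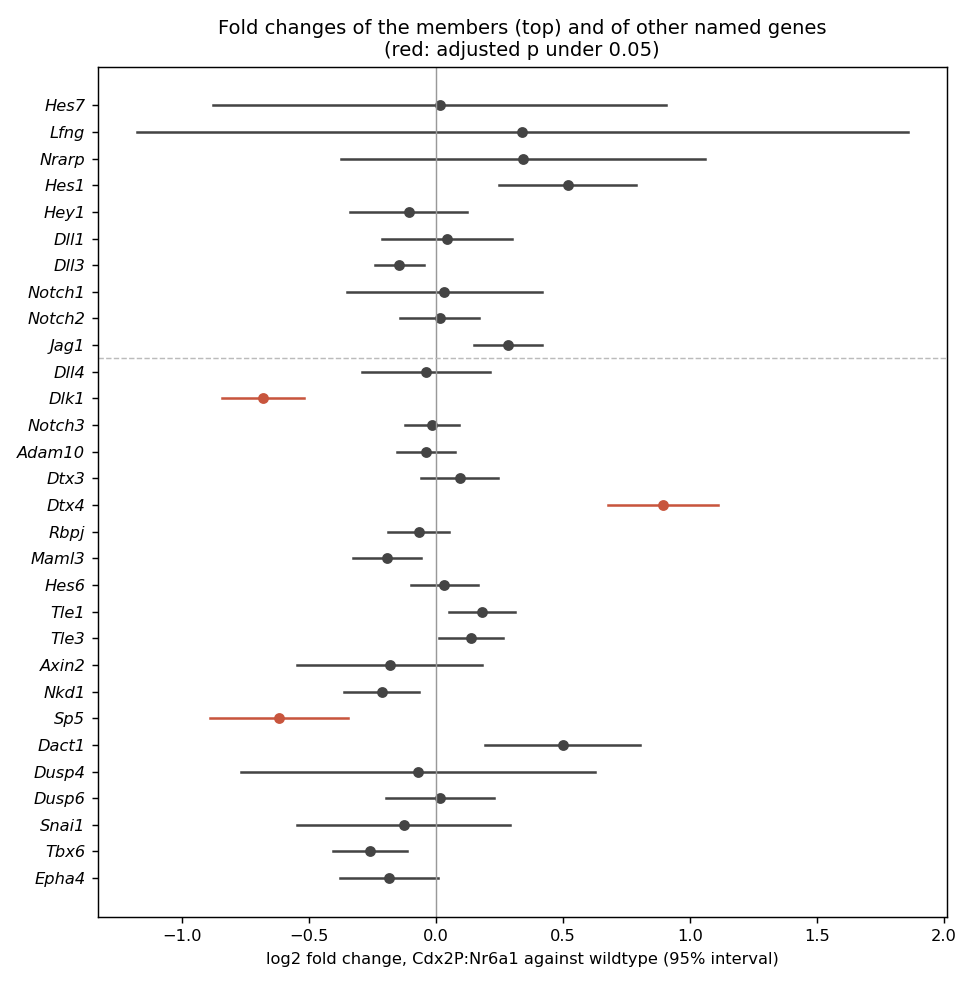
Log2 fold change of Cdx2P:Nr6a1 against wildtype (horizontal axis) with 95% intervals for the 10 members (above the dashed line) and other named genes that were tested, without Nr6a1 and Hes3; red marks an adjusted p under 0.05. Among the members no interval is red, Lfng has the widest interval (-1.18 to 1.86), and those of Hes1, Jag1 and Dll3 do not include 0.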

How the data were processed

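RNA-seq libraries were made with a stranded mRNA kit from 6 tailbuds, 4 wildtype and 2 Cdx2P:Nr6a1, grouped by the genotype in their labels. Per the labels and the methods, the authors aligned reads with STAR and used edgeR, and the labels name mm10. The authors deposited raw counts per gene, without normalization. The counter and its version are not given in the sources used here, and all 191 exon intervals of the members matched GENCODE M21 on GRCm38. A second deposited table, holding the authors' own fold changes and p-values for a subset of genes beside their counts and CPM, was not used. The table had 0 columns of other samples.

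The members and gene lists were chosen with earlier results of these data known. Named beside the 10 members were Nr6a1, a fixed set (Rbpj, Hes5, Notch3, Dll4, Mesp2, Ripply2, Tbx6, Axin2, Dusp4 and Dusp6) and, in each list, the genes called, the 3 with most CPM per kb of exon, and those with separated genotypes and an unadjusted p under 0.05. Efna1, Dkk1, Spry4 and 9130213A22Rik were chosen after their values were seen, as were the yolk sac endoderm and Y-linked lists. The values of 1 gene that this rule names and 1 promoter stretch are not reported here.

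A gene needed more than 10 counts and over 2 CPM in 2 or more libraries to be tested with edgeR 4.0.16 (quasi-likelihood test, TMM, no covariate) in R 4.3.3, with Benjamini-Hochberg adjustment over 12733 genes and a threshold of 0.05. Adjusted p-values in the text come from this test unless another is named. Printed CPM used column totals, and errors are SD. The SE of a log2 fold change was its size over the root of the F statistic. Limma 3.58.1 and DESeq2 1.42.0 served as alternatives, and Python 3.11.15 with scipy 1.17.1 made permutation tests, tables and plots. The scripts were tested on simulated data. Replicates were separate embryos. The closing section gives the effects of 15 other settings, 1 of them, Y-linked expression as a covariate, added after seeing the data. The others were the likelihood ratio test, DESeq2, limma voom, RLE normalization, library size only, filterByExpr, no filter, the replicate number as a block and each of the 6 libraries left out. The depth, 44073460 to 67183802 counts, gave the members a counting error of 0.799% to 2.30%, and intervals of counting cover counting error only.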

Additional observations from a re-analysis of the deposited data

Results flagged for a closer look

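In wildtype, Hey1 was lowest in replicate 4, at 59.3 CPM against 73.5 to 76.3 CPM in the other 3 libraries, and the gap was 0.834 of the whole range, past the 95% critical value of Dixon's test for 4 samples. Dll4 was highest in wildtype replicate 1, at 9.66 CPM against 7.95 to 8.14 CPM, with a gap of 0.890 of the range. Of the 33 genes checked, chance alone flags about 1 in 20.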

How the results depend on the processing

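Over the 15 other settings, the 33 named genes gave 495 fold changes, of which 437 kept their direction and side of the threshold, 23 passed the threshold, 6 lost it and 29 changed sign. Genes called over all genes tested, 203 in the main test, came to 401 by the likelihood ratio test of edgeR, 477 by DESeq2, 876 without a filter on low counts and 442 with the replicate number as a block, and to between 61 and 175 with each library left out in turn. Members called, 0 in the main test, came to 2 (Hes1 and Jag1) by the likelihood ratio test, by DESeq2 and with the replicate block, to 1 (Jag1) by limma voom, to 4 (with Lfng and Nrarp) without a filter, and to between 0 and 2 with each library left out, the 2 being Hes1 and Jag1 without wildtype replicate 3. The other cyclic genes called, 1 in the main test, came to 2 by the likelihood ratio test and DESeq2, 4 without a filter, 4 with the replicate block, 0 with Y-linked expression as a covariate, and 0 to 1 with each library left out. The segment border genes called came to 1 (Tbx6) by the likelihood ratio test, DESeq2, without a filter and with the replicate block, against 0 in the main test. Members whose genotypes did not overlap came to between 3 and 5, the 5 without Cdx2P:Nr6a1 replicate 1 being Hes7, Hes1, Dll3, Notch2 and Jag1. That setting leaves 1 transgenic library, which is apart whenever it is the highest or the lowest, so separation is easier than with 2. The 18.6% of all genes tested refers to 2 libraries against 4, and no such share is given with a library left out. The rise to 5 is therefore not read as a result about the members. The cause of the changes over these settings was not tested.

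The fold changes that changed sign belonged to genes not called in the main test. Hes7 had -0.13 by limma voom and -0.21 with the replicate block, Dll1 -0.013, Notch1 -0.094, Notch2 -0.029 and Hes6 -0.015 with the block, and Notch2 -0.0076 with the Y-linked covariate. With each library left out, the log2 fold change ranged from -0.89 to 0.58 for Hes7, -0.77 to 1.02 for Lfng, -0.024 to 0.64 for Nrarp, -0.039 to 0.12 for Dll1, -0.068 to 0.21 for Notch1, -0.092 to 0.11 for Notch2, -0.070 to 0.030 for Dll4, -0.069 to 0.036 for Notch3, -0.43 to 0.024 for Axin2, -0.45 to 0.23 for Dusp4, -0.083 to 0.11 for Dusp6 and -0.23 to 0.013 for Snai1. Lfng had -0.77 and Nrarp -0.024 without Cdx2P:Nr6a1 replicate 1. With a transgenic library left out, the lone library was assumed to vary like the others. The replicate numbers do not pair embryos: deviations of same-numbered libraries correlated at 0.27 for number 1 and -0.23 for number 2, and the block only shares a number. With 2 transgenic embryos, an exact permutation test cannot give a p under 0.0667.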

Other observations

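Of the 12732 genes tested other than Lfng, 10 had exactly its library order, Dusp4 and Efna1 among them, and 11 had exactly the reverse order. The 6 libraries have 720 possible orders, so a match of order alone is not rare among so many genes. Per1, a component of the circadian clock, and Dusp7, a phosphatase of MAP kinases, were also among the 10 and, like Dusp4 and Efna1, ranged over 1.5-fold. Per1 was at 55.7, 28.4, 42.0 and 29.4 CPM in wildtype and at 54.5 and 33.5 CPM in Cdx2P:Nr6a1. Id1, a target of BMP signalling, had the same 3 libraries highest, at 129, 85.3, 105.6 and 75.2 CPM in wildtype and 132.9 and 79.9 CPM in Cdx2P:Nr6a1. These genes were chosen after their values were seen, and no test was made.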
